A study of Mus musculus with 10 samples.

Results

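The genes described here encode the subunits of the constitutive proteasome and the activators that dock on it. They are the 40 rows whose symbol is Psma, Psmb, Psmc, Psmd or Psme followed by a number, without the 3 immunoproteasome genes Psmb8, Psmb9 and Psmb10, out of 55573 annotated genes. By role they divide into 16 genes of the core particle (Psma1 to Psma8, Psmb1 to Psmb7 and Psmb11), 20 genes of the regulatory particle (Psmc1 to Psmc6 and Psmd1 to Psmd14) and 4 activator genes (Psme1 to Psme4). RNA was sequenced in bulk from bone marrow hematopoietic stem and progenitor cells (HSPCs) of C57BL/6 mice. Epidermal growth factor (EGF, which binds the receptor tyrosine kinase EGFR) was given subcutaneously to the mice behind 5 libraries, and Saline by that route to those behind the other 5. Every mouse of both groups was 16 weeks old by the labels and had received 500 cGy of total body radiation, and the series' design text places collection at 6 weeks afterwards, so no unirradiated marrow enters the comparison. For the dose of EGF and the gate that defined HSPCs, no source used here gives a value. The labels do not tie each library to its own mouse, so the tests rest on library-to-library spread that may be technical.

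The proteasome is the barrel-shaped protease that degrades ubiquitin-tagged proteins in the nucleus and cytosol. Stacked rings of alpha and beta subunits form its core particle, with the peptide-cutting sites facing inward on 3 of the beta subunits. The regulatory particle caps the core: its base holds the ring of ATPases that unfolds a substrate and pushes it in, and its lid removes the ubiquitin chain. In cells whose proteasomes are inhibited, the transcription factor encoded by Nfe2l1 raises the proteasome genes together through antioxidant response elements in their promoters. Hematopoietic stem cells are known for a low rate of protein synthesis and for their sensitivity to misfolded protein.

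Total counts were between 6805106 and 8370820 per library. In 9 libraries 18734 to 20046 genes had a count, and in EGF replicate 5 only 12731 did, so results that rest on that library are also given without it. The 10 HSPC marker genes (Kit, Cd34, Flt3, Ly6a and others) were all detected, with a summed level of 1914 to 2111 CPM in the EGF libraries and 1649 to 1928 CPM in the Saline libraries. CPM here means the count per 1000000 reads of the TMM-scaled library. Procr alone of these markers had no count in at least 1 EGF library. In bulk RNA, fewer cells of a type and less RNA per cell cannot be told apart.

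Promoter sequence is shown first for 4 members taken up below: the catalytic genes Psmb5 and Psmb6, whose regions hold the core of an antioxidant response element, Psmb4, the one member whose groups did not overlap, and Psmd6 of the lid, whose region holds an ETS-type letter string found often among the members. Each run is the 250 bases before the RefSeq start site (GRCm38.p6), written 5′ to 3′ on the gene's own strand, with the named motif in capitals. Psmb5 lies on the minus strand (chr14:54617996-54618245) and its capitals mark TGACNNNGC, 38 bases before the start. Psmb6 lies on the plus strand (chr11:70525107-70525356) and its capitals mark the same motif, directly before the start. Psmb4 lies on the minus strand (chr3:94886959-94887208) and its capitals mark TATAAA read on both strands, in overlapping copies. Psmd6 lies on the minus strand (chr14:14120946-14121195) and its capitals mark CCGGAAG, 38 bases before the start.
Psmb5: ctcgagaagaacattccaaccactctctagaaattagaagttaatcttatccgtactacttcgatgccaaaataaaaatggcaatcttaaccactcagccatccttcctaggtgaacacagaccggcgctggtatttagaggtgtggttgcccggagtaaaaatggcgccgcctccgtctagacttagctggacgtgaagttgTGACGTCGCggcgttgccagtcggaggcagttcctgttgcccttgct
Psmb6: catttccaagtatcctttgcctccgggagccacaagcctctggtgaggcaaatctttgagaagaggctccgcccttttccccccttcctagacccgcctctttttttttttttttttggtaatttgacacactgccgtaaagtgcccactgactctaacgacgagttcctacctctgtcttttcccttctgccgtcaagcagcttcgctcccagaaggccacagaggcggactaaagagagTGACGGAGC
Psmb4: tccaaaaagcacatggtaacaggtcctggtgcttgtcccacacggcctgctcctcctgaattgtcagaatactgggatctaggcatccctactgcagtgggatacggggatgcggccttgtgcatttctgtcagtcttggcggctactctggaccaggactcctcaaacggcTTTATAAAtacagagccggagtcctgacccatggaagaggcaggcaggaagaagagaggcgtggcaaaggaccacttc
Psmd6: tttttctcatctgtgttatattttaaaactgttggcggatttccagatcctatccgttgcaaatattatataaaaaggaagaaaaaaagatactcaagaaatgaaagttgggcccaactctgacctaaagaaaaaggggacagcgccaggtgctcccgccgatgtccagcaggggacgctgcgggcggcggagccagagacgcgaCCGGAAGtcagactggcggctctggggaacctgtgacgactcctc

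RefSeq gave such a region for 33 of the 40 members, and 10 motifs were searched on both strands in these and in all 32851 upstream regions of the table. TGACNNNGC was in 5 of the 33 members (15.2%), against 10.2% of all regions. The 5 were Psmb5, Psmb6, Psmc6, Psmd9 and Psmd12. CCGGAAG was in 10 members (30.3%), against 6.91% of all regions. Those were Psmc1, Psmc2, Psmc6, Psmd2, Psmd4, Psmd6, Psmd11, Psmd12, Psme3 and Psme4, with 0 core genes among them. GGGCGG, the letters of a GC box, was in 20 members (60.6%), against 32.7% of all regions. TGACG, which is also part of the longer TGACGTCA, was in 13 (39.4%), against 17.8%, and TGACGTCA itself was in 0, against 1.55%. CCAAT was in 13 (39.4%), against 33.8%, TGANNNNGC, which contains every TGACNNNGC, was in 11 (33.3%), against 35.2%, and TATAAA was in 3 (9.09%; Psmb4, Psmd1 and Psmd6), against 12.4%. TGACTCAGC, a stricter form of TGACNNNGC, was in 0, against 0.39%. ACTACA was in 3 (9.09%), against 8.92%. A match describes letters and is not a mapped binding site.

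Of the 40 members, 39 passed the low-count filter. The exception was Psmb11, the beta subunit of the thymus proteasome, which had 2 counts in EGF replicate 1 and 0 in the other 9 libraries, and a count of 0 allows up to 3 counts. In the quasi-likelihood test of edgeR, with p adjusted over all 12874 genes by Benjamini-Hochberg, 0 of the 39 members were higher and 0 were lower under EGF, and the lowest adjusted p among them was 0.552. The background was thin as well: 0.00777% of all genes were called higher and 0% lower. At an unadjusted p under 0.05, 2 members were lower (Psmb4 and Psmd3), which is 5.13% of the 39 against 2.73% of all genes, and 0 members were higher against 6.14% of all genes. By DESeq2, 0 members were called as well, with 0.21% of all genes called, and at an unadjusted p under 0.05 it put 2 lower, against 1.88% of all genes. Limma-voom with sample quality weights put 13 members lower at that threshold, against 7.55% of all genes, and called 0 of them, against 0.0932% of all genes. Other scalings put 6 lower (library size, 2.35% of all genes) and 7 lower (upper quartile, 2.77%). In the remaining fits 0 members were called either, where the share of all genes called was 0.00371% with no filter, 0.00746% with a filter of 1 CPM in 5 libraries, 0.00766% without Saline replicate 2, 0.0153% without EGF replicate 1, 0.0611% without EGF replicate 5, 0.00736% without EGF replicates 3, 4 and 5, and at most 0.00777% in the others.

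The fitted differences of the members leaned to one side although none passed. Their log2 fold change was below 0 for 32 of 39, against 51.5% of all genes, with a median of -0.17 against -0.01 over all genes. Among core genes 13 of 15 were below 0, with a median of -0.28. In the regulatory particle 16 of 20 were below 0, with a median of -0.16. The activators had 3 of 4 below 0 and a median of -0.13. Without EGF replicate 5, 36 of 39 were below 0 (50% of all 13104 genes tested then), the median was -0.18 for the members and 0 for all genes, and again 0 members were called, with a lowest adjusted p of 0.161; of all genes 0.0305% were called higher and 0.0305% lower, 0.0611% in sum. In that fit 15 members were lower at an unadjusted p under 0.05 (38.5%), against 7.39% of all genes, and 0 were higher, against 8.38%. Those 15 were 8 core genes (Psma3, Psma4, Psma5, Psmb1, Psmb2, Psmb4, Psmb5 and Psmb6), 6 genes of the regulatory particle (Psmc2, Psmd2, Psmd3, Psmd6, Psmd13 and Psmd14) and the activator gene Psme3. By limma-voom with quality weights, all libraries kept, the median was -0.20 for core genes, -0.16 for the regulatory particle and -0.10 for the activators. The core and regulatory medians were thus closer there than in the edgeR fit of all libraries.

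**Figure D1:**
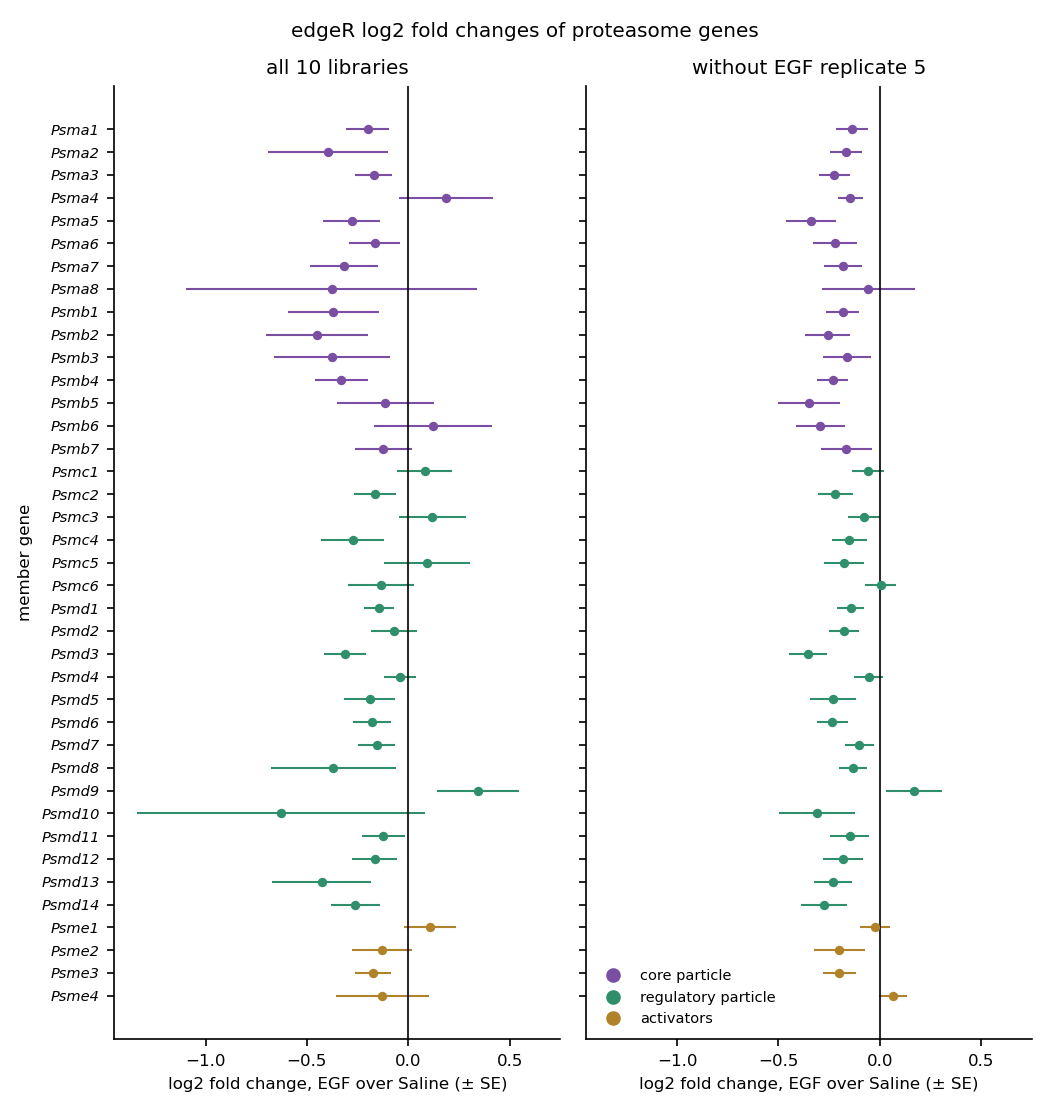
The edgeR log2 fold change of each tested proteasome gene, EGF over Saline, with its SE (x axis), by class (y axis, gene names), fitted with all 10 libraries and without EGF replicate 5. The fits put 32 and 36 of the 39 genes below 0, with a median SE of 0.14 over all libraries and 0.09 without that library.

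The sum over each class shows the size of the lean in level. The core genes summed to 922 ± 83.6 CPM under EGF and 1032 ± 59.6 CPM under Saline (SD, n = 5 each), 89.3% of the Saline mean. The regulatory particle summed to 1644 ± 99.0 CPM under EGF and 1789 ± 102 CPM under Saline, 91.9% of the Saline mean. The activators summed to 632 ± 70.9 CPM under EGF and 636 ± 25.9 CPM under Saline, 99.4%. EGF replicate 5 had the highest activator sum of all 10 libraries, 721 CPM. Without it the core genes were at 87.1% of the Saline mean, the regulatory particle at 90.4% and the activators at 95.9%. For each of these 3 sums the ranges of the groups overlapped. Within the regulatory particle the sum of the 6 ATPase genes was 529 ± 73.0 CPM under EGF and 534 ± 41.0 CPM under Saline. That of the 14 Psmd genes was 1115 ± 53.1 CPM under EGF and 1254 ± 61.2 CPM under Saline. EGF replicate 5 had the highest ATPase sum of all 10 libraries, 649 CPM. Without it the EGF sums were 500 ± 34.1 CPM for the ATPases and 1117 ± 61.0 CPM for the Psmd genes (n = 4), 93.5% and 89.1% of the Saline means. The core sum was 0.522 to 0.578 times the regulatory sum in the EGF libraries and 0.568 to 0.591 times in the Saline libraries.

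**Figure D2:**
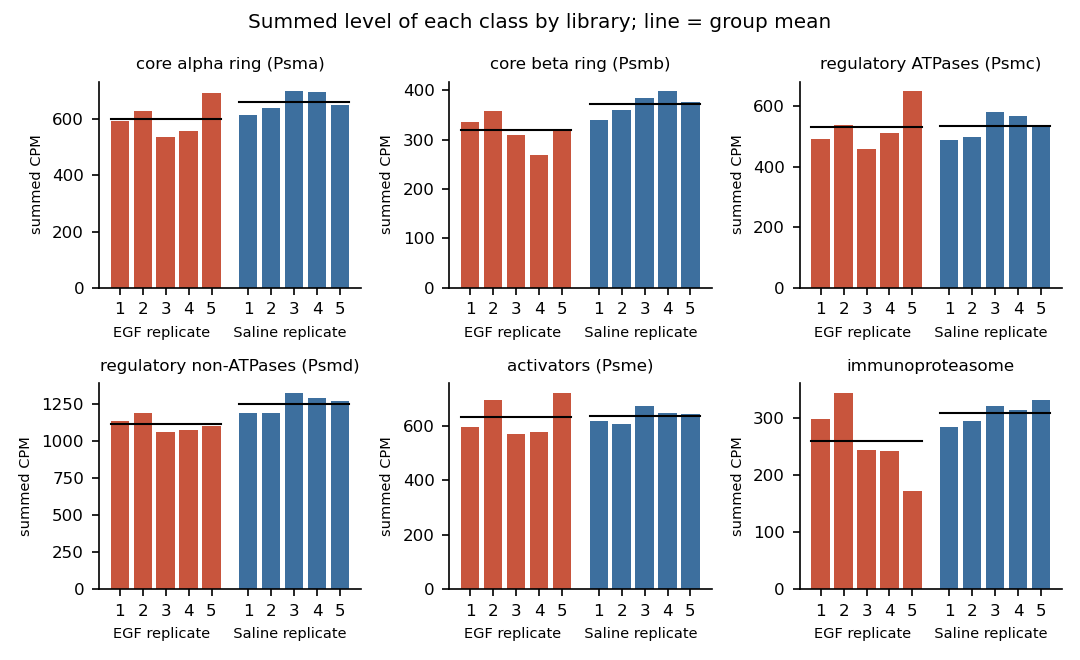
Summed TMM-scaled CPM (y axis) of each class of proteasome genes in each of the 10 libraries (x axis, EGF replicates and then Saline replicates), with a line at the group mean. EGF replicates 3 and 4 have the lowest core sums, 846 and 828 CPM, and the Saline core sums lie between 954 and 1097 CPM.

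The alpha ring, the outer ring that gates entry to the core, had 7 of 8 genes below 0 and a median log2 fold change of -0.24. Its smallest p-values belonged to Psma5, Psma1 and Psma7. Psma5 stood at 43.9, 53.1, 37.0, 32.8 and 50.01 CPM in the EGF libraries and 49.0, 56.7, 55.9, 53.6 and 47.8 CPM in the Saline libraries. Only EGF replicates 2 and 5 reached the Saline range, and the log2 fold change was -0.28 (SE 0.14, edgeR adjusted p = 0.553). Psma1 had 71.7, 72.2, 66.8, 60.3 and 52.8 CPM under EGF and 73.2, 69.8, 80.1, 79.3 and 69.7 CPM under Saline, so EGF replicates 1 and 2 lay among the Saline libraries and the other 3 below them (log2 fold change -0.20, SE 0.11). Psma7 had 113, 110, 83.3, 108 and 57.2 CPM under EGF and 104, 114, 122, 130 and 117 CPM under Saline. Here too replicates 3 and 5 were the low EGF libraries (log2 fold change -0.32, SE 0.17, and -0.18, SE 0.09, without EGF replicate 5). Psma3, taken up after its values were seen, had 86.7 to 115 CPM under EGF and 102 to 125 CPM under Saline, and a log2 fold change of -0.22 (SE 0.08, edgeR adjusted p = 0.21) without EGF replicate 5. Psma8 encodes the alpha subunit of the testis proteasome. It was detected in 9 of the 10 libraries, at 5.15 to 10.6 CPM in EGF replicates 1 to 4 and 6.35 to 9.61 CPM in the Saline libraries, and had 0 counts in EGF replicate 5.

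The beta subunits divide into the 3 that cut peptides and those that only build the ring. In the structural ones (Psmb1, Psmb2, Psmb3 and Psmb4, grouped here after the values were seen) all 4 log2 fold changes were below 0, with a median of -0.37, or -0.21 without EGF replicate 5. Psmb4, at chromosome 3 from 94884093 to 94886961 on the minus strand (GRCm38), was the only member whose EGF libraries all lay below all Saline libraries. That is 2.56% of the 39 tested members, near the 1.65% of all genes that did so. Psmb4 stood at 54.8, 52.5, 48.8, 46.4 and 33.8 CPM under EGF and 58.8, 64.2, 59.1, 59.1 and 56.0 CPM under Saline. Its mean was 47.3 ± 8.22 CPM under EGF and 59.4 ± 2.98 CPM under Saline (SD, n = 5 each), from 241 to 437 counts under EGF and 419 to 497 counts under Saline, and the log2 fold change was -0.33 (SE 0.13, edgeR adjusted p = 0.552). EGF replicate 5 was the lowest of its libraries; without it the log2 fold change was -0.23 (SE 0.08, edgeR adjusted p = 0.204) and the groups still did not overlap. Psmb2 had 44.4, 42.8, 34.2, 31.9 and 14.0 CPM under EGF and 41.6, 42.5, 48.0, 51.3 and 45.4 CPM under Saline (log2 fold change -0.45, SE 0.25, and -0.26, SE 0.11, without EGF replicate 5). EGF replicates 1 and 2 were inside the Saline range and replicates 3, 4 and 5 below it. Psmb1 had 77.3 to 91.1 CPM in EGF replicates 1 to 4, 32.8 CPM in replicate 5, and 85.3 to 111 CPM under Saline.

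For 2 of the 3 catalytic genes the value depended on EGF replicate 5. Psmb5 encodes the subunit with chymotrypsin-like activity, the main target of bortezomib. It had 14.9, 15.5, 15.3, 11.2 and 26.8 CPM under EGF and 18.3, 15.4, 18.7, 15.7 and 22.3 CPM under Saline. EGF replicate 5 was the highest of all 10 libraries, and of the other EGF libraries only replicate 2 was not below every Saline library. The log2 fold change was -0.11 (SE 0.24, edgeR adjusted p = 0.868), and -0.35 (SE 0.15, edgeR adjusted p = 0.287) without replicate 5. Psmb6, with caspase-like activity, had 60.2, 72.9, 58.6, 42.8 and 156 CPM under EGF and 66.8, 72.2, 78.8, 69.6 and 71.2 CPM under Saline. Its log2 fold change was 0.12 (SE 0.29, edgeR adjusted p = 0.883) with all libraries and -0.29 (SE 0.12, edgeR adjusted p = 0.271) without replicate 5, a change of sign. Psmb7, with trypsin-like activity, had 41.5, 51.1, 42.4, 35.3 and 48.7 CPM under EGF and 39.3, 41.8, 48.8, 57.5 and 51.0 CPM under Saline, groups that overlapped widely (log2 fold change -0.12, SE 0.14). Together the 3 genes summed to 139 ± 54.7 CPM under EGF and 137 ± 9.90 CPM under Saline, and to 115 ± 20.5 CPM (n = 4) under EGF when replicate 5 was left out.

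The immunoproteasome genes, whose products replace those 3 subunits in hematopoietic and interferon-exposed cells, are outside the set and serve as a comparison. The fitted values of all 3 were below 0 (median -0.27, or -0.11 without EGF replicate 5), and none reached an unadjusted p of 0.05 in either fit. Psmb8 had 217, 238, 175, 178 and 138 CPM under EGF and 215, 216, 234, 237 and 241 CPM under Saline (log2 fold change -0.27, SE 0.13), and Psmb10 had 4.62 to 49.97 CPM under EGF and 32.4 to 45.5 CPM under Saline. Scaled to transcript length, Psmb8 was 2.85 to 8.75 times Psmb5 in the EGF libraries and 5.96 to 8.34 times in the Saline libraries. Psmb5 is 98.9% identical over 796 bases to Gm3375, while no near copy of Psmb8 was found. How reads shared with Gm3375 were assigned is unknown, so any effect on the ratio of Psmb8 to Psmb5 cannot be sized. The ratio of Psmb9 to Psmb6 was 0.109 to 0.499 under EGF and 0.329 to 0.384 under Saline, and EGF replicate 5 held the lowest value of each ratio.

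In the edgeR fit of all libraries the ATPases of the base had the median nearest 0 of the classes. Of the 6 Psmc genes 3 were below 0, with a median log2 fold change of -0.03, and 0 passed an unadjusted p of 0.05 in either direction. Without EGF replicate 5, 5 of 6 were below 0. Quality weights put the Psmc median at -0.13 and the activator median at -0.10, so there the activators were nearest 0. Psmc4 had the smallest p of the class in the edgeR fit of all libraries. It stood at 67.0, 65.2, 58.2, 64.9 and 37.4 CPM under EGF and 62.6, 63.0, 76.3, 78.2 and 74.0 CPM under Saline (log2 fold change -0.27, SE 0.16, and -0.15, SE 0.09, without EGF replicate 5). Only EGF replicates 3 and 5 were below all Saline libraries. Psmc2 had 52.1 to 66.7 CPM under EGF and 57.5 to 71.7 CPM under Saline, with a log2 fold change of -0.16 (SE 0.10), and -0.22 (SE 0.09, edgeR adjusted p = 0.246) without EGF replicate 5. Psmc6 had 80.8 to 94.5 CPM in EGF replicates 1 to 4, 46.5 CPM in EGF replicate 5 and 78.9 to 95.2 CPM under Saline. Its log2 fold change was -0.13 (SE 0.16) with that library and 0.005 (SE 0.08) without it.

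The other base subunits were taken up for their roles: Psmd1 and Psmd2 are the scaffolds of the base on which ubiquitin-like domains and other partners dock, and Psmd4 is a ubiquitin receptor. Psmd1 had 134, 137, 119, 128 and 128 CPM under EGF and 145, 129, 157, 139 and 144 CPM under Saline (log2 difference -0.15, SE 0.07; edgeR adjusted p = 0.554). EGF replicates 3, 4 and 5 were below every Saline library, and replicates 1 and 2 within their range. Psmd2, among the most abundant members by CPM, had 149 to 233 CPM under EGF and 174 to 213 CPM under Saline (log2 fold change -0.07, SE 0.12). Without EGF replicate 5, its highest library, the value was -0.18 (SE 0.08, edgeR adjusted p = 0.284). Psmd4 had 119 to 146 CPM under EGF and 125 to 151 CPM under Saline, with a log2 fold change of -0.04 (SE 0.08).

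In the lid, which carries the deubiquitinase, all 8 log2 fold changes were below 0 (Psmd3, Psmd6, Psmd7, Psmd8, Psmd11, Psmd12, Psmd13 and Psmd14), with a median of -0.22, or -0.21 without EGF replicate 5. This grouping was made after the values were seen. The lid genes summed to 626, 636, 589, 586 and 521 CPM in the EGF libraries and 660, 658, 742, 735 and 696 CPM in the Saline libraries, so every EGF library was below every Saline library. The means were 592 ± 45.1 CPM under EGF and 698 ± 40.0 CPM under Saline (SD, n = 5 each), 84.8% of the Saline mean, and 87.3% without EGF replicate 5. Psmd3, a lid subunit at chromosome 11 from 98682554 to 98695979 on the plus strand (GRCm38), had the smallest p of all members. It stood at 84.1, 79.5, 75.6, 62.2 and 86.1 CPM under EGF and 84.4, 92.6, 97.1, 103 and 104 CPM under Saline. Only EGF replicate 5 passed the lowest Saline library. The mean was 77.5 ± 9.50 CPM under EGF and 96.2 ± 8.04 CPM under Saline (SD, n = 5 each), and the fitted log2 difference was -0.31 (SE 0.11, edgeR adjusted p = 0.552). Without replicate 5 the groups did not overlap and the log2 fold change was -0.35 (SE 0.09, edgeR adjusted p = 0.161).

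Psmd14, the deubiquitinase that cuts the ubiquitin chain from a committed substrate, had 57.7, 60.3, 60.6, 63.6 and 63.2 CPM under EGF and 61.6, 65.1, 87.7, 87.2 and 64.8 CPM under Saline. The EGF libraries lay close together, while Saline replicates 3 and 4 stood above the other 3 Saline libraries. The log2 fold change was -0.26 (SE 0.12, edgeR adjusted p = 0.552), and -0.28 (SE 0.11) without EGF replicate 5. Psmd6, taken up for its separation without replicate 5, had 69.3, 62.3, 66.8, 69.2 and 80.4 CPM under EGF and 79.7, 69.9, 81.5, 86.0 and 76.5 CPM under Saline. Replicate 5 was the one EGF library among the Saline libraries; the log2 fold change was -0.18 (SE 0.09) with it and -0.23 (SE 0.08, edgeR adjusted p = 0.20) without it. Without that library 3 members had all EGF libraries below all Saline libraries (Psmb4, Psmd3 and Psmd6; 7.69% of 39, against 2.36% of all genes), and 0 had them all above (2.66% of all genes). Psmd11, a lid subunit that ties lid to base, had 72.8 to 91.7 CPM under EGF and 79.8 to 105 CPM under Saline (log2 fold change -0.12, SE 0.10). It is 97.9% identical over 1501 bases to A730017L22Rik, whose counts came to 9.83% of its own. With the counting tool not given, how shared reads were assigned is unknown, so the uncertainty in the level of Psmd11 cannot be sized. Psmd13 had 57.6, 60.9, 53.4, 45.9 and 19.8 CPM under EGF and 57.0 to 70.6 CPM under Saline, with a log2 fold change of -0.43 (SE 0.24) that was -0.23 (SE 0.09) without replicate 5.

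**Figure D3:**
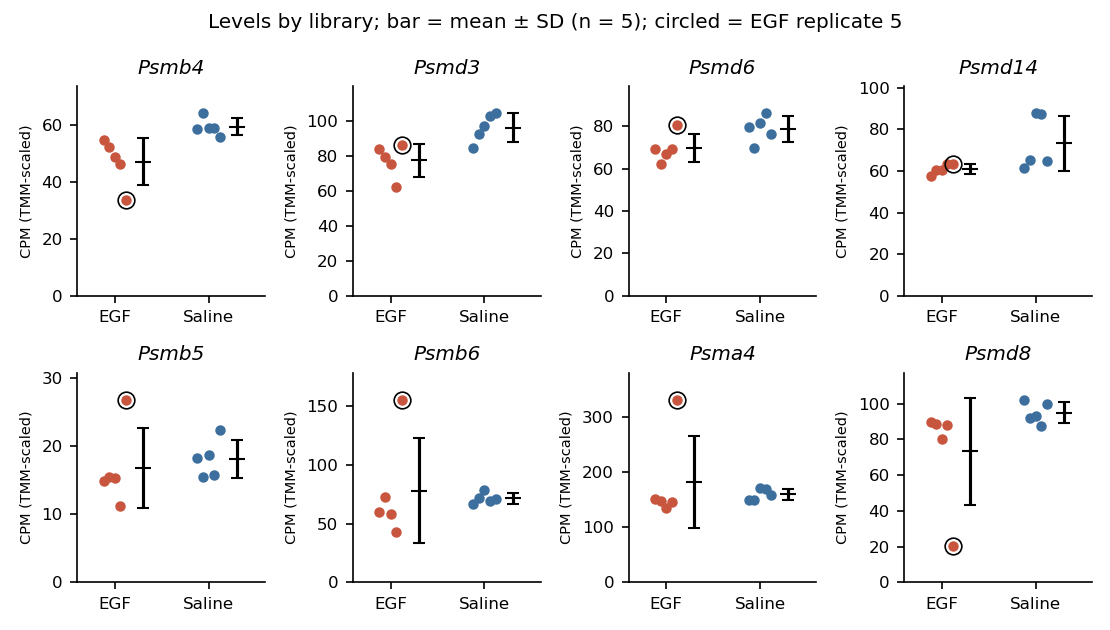
TMM-scaled CPM (y axis from 0) of 8 members in the EGF and the Saline libraries (x axis; 1 point per library, mean ± SD with n = 5 beside them), with EGF replicate 5 circled. In Psmb4 all EGF points lie below the Saline points, in Psmd3 and Psmd6 all but the circled one do, and in Psmb5, Psmb6 and Psma4 the circled point is the highest of all 10.

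Psmd5, Psmd9 and Psmd10 carry subunit names but encode chaperones that help to assemble the base and leave it before it is complete. Psmd9 was the only Psmd gene above 0. It had 18.7, 21, 24.5, 21 and 35 CPM under EGF and 14.6, 22.2, 17.9, 19.1 and 21 CPM under Saline (log2 difference 0.34, SE 0.20; edgeR adjusted p = 0.59), and 0.17 (SE 0.14) without EGF replicate 5. Of its exonic bases 25.5% lie over Gm26745 on the other strand, and with the strand setting of the counting not given, the reads of these genes cannot be told apart. Psmd10 had 9.67 to 14.9 CPM in EGF replicates 1 to 4, 0 counts in replicate 5, and 12 to 20.8 CPM under Saline. Overlap with a gene on the other strand covered 11.8% of Psmb7 (Nek6) and 10.1% of Psmd13 (Sirt3).

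The activators bind the core in place of, or beside, the regulatory particle. Psme1 and Psme2 form the interferon-inducible PA28 ring. Psme1 was the most abundant member, at 310, 381, 323, 306 and 486 CPM under EGF and 321, 310, 355, 334 and 358 CPM under Saline (log2 fold change 0.11, SE 0.13, and -0.03, SE 0.07, without EGF replicate 5). Psme2 had 47.5, 62.2, 38.2, 42.7 and 59.1 CPM under EGF and 53.1, 48.0, 62.4, 54.6 and 55.3 CPM under Saline (log2 fold change -0.13, SE 0.15). Psme2 is 99.4% identical over 794 bases to Psme2b, whose counts came to 11.1% of its own. How reads shared by these genes were assigned is unknown, so the uncertainty in the level of Psme2 cannot be sized. Psme3, which forms a ring in the nucleus, had 138, 138, 108, 118 and 136 CPM under EGF and 135, 140, 153, 156 and 136 CPM under Saline (log2 fold change -0.17, SE 0.09). EGF replicates 3 and 4 were the only ones below the Saline range, and without replicate 5 the value was -0.20 (SE 0.08, edgeR adjusted p = 0.264). Psme4 had 101 to 115 CPM in EGF replicates 1 to 4, 39.6 CPM in replicate 5, and 93.2 to 109 CPM under Saline.

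Per kb of principal transcript, levels of subunits that are built into the particle in equal number still spanned a wide range. Among core genes the highest were Psma4, at 156 ± 71.7 CPM per kb under EGF and 137 ± 8.99 CPM per kb under Saline, and Psma7, at 103 ± 26.3 under EGF and 129 ± 10.4 under Saline (SD, n = 5 each); these neighbours did not differ beyond their spread. Psmb6 followed at 97.8 ± 56.0 CPM per kb under EGF and 89.9 ± 5.59 under Saline. At the low end of the core genes built into most cells' proteasomes stood Psma2, at 16.8 ± 6.70 CPM per kb under EGF and 22.2 ± 1.44 under Saline. Psmb5 was at 18.6 ± 6.53 under EGF and 20.1 ± 3.08 under Saline. The transcript used was 2911 bases for Psma2 and 899 for Psmb5, and unscaled Saline means were 64.5 and 18.1 CPM. The place of Psma2 thus depends on the transcript chosen, and that of Psmb5 on how reads shared with Gm3375 were assigned. Psma8 was at 3.60 ± 2.37 CPM per kb under EGF and 4.68 ± 0.826 under Saline. In the regulatory particle Psmd4 was highest, at 100.2 ± 7.46 CPM per kb under EGF and 103 ± 7.17 under Saline. The assembly chaperones Psmd5, Psmd10 and Psmd9 were lowest there, at 10.2 ± 1.72, 6.69 ± 3.99 and 9.26 ± 2.50 CPM per kb under EGF and 11.7 ± 0.605, 10.4 ± 2.43 and 7.30 ± 1.13 under Saline. Psme1 exceeded all other members at 325 ± 68.3 CPM per kb under EGF and 302 ± 18.8 under Saline. Its usual partner Psme2 had 51.9 ± 10.8 CPM per kb under EGF and 56.8 ± 5.38 under Saline. Reads shared by Psme2 and Psme2b may limit this comparison to an unknown extent.

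**Figure D4:**
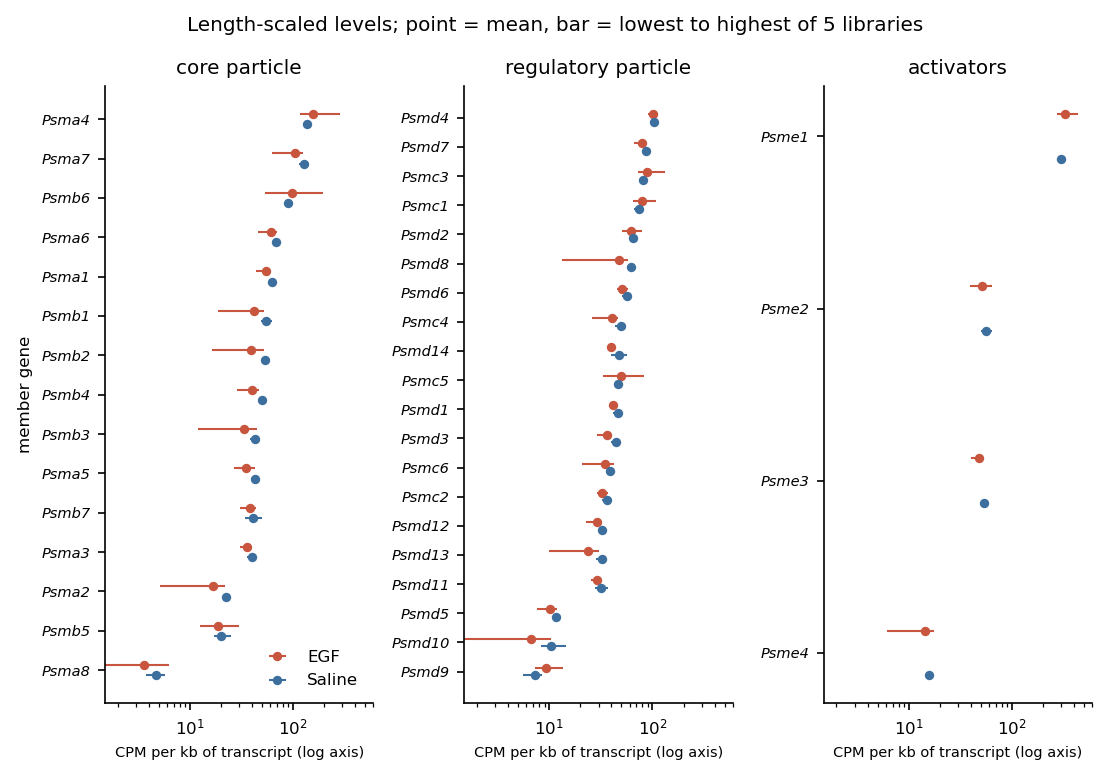
TMM-scaled CPM per kb of principal transcript (x axis, log scale) for each tested member (y axis) under EGF and under Saline; points are means and bars run from the lowest to the highest of 5 libraries. The Saline means run from 4.68 for Psma8 to 302 for Psme1, and the EGF bars of Psma8 and Psmd10 reach 0 and leave the log axis.

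The libraries did not share the lean equally. The median ratio of a member's level to its Saline mean was 0.91, 0.97, 0.84, 0.84 and 0.95 in EGF replicates 1 to 5, and 0.93, 0.95, 1.06, 1.03 and 1.004 in Saline replicates 1 to 5. Over all members EGF replicates 2 and 5 were within the range of the Saline libraries, EGF replicate 1 was just below it, and EGF replicates 3 and 4 were the low ones. For the core genes alone the median ratio was 0.91, 0.95, 0.84, 0.81 and 0.71 in EGF replicates 1 to 5, so EGF replicate 5 was the lowest there, and 0.93 to 1.06 in the Saline libraries. For the regulatory particle it was 0.92, 0.98, 0.84, 0.89 and 0.95 in EGF replicates 1 to 5 and 0.91 to 1.06 in the Saline libraries. Of the 39 tested members, 38, 24, 37, 34 and 23 were below their Saline mean in EGF replicates 1 to 5. In Saline replicates 1 to 5 it was 31, 31, 10, 10 and 18. Over all tested genes the share below the Saline mean was 51.5 to 57.8% in the EGF libraries and 51.2 to 51.8% in the Saline libraries. EGF replicate 3 was the lowest of all 10 libraries for 11 members, replicate 4 for 8 and replicate 5 for 15, while Saline replicates 3 and 4 were the highest for 11 and 10. EGF replicate 5 was also the highest for 9 members. No such count was made over all genes. Without EGF replicates 3 and 4 the core median was -0.19 and the regulatory median -0.12, against -0.07 over all genes, and 0 members were lower at an unadjusted p under 0.05, against 1.58% of all genes; 28 of 39 members were below 0, against 56.3% of all genes. Without EGF replicates 3, 4 and 5 the core median was -0.10 with 14 of 15 below 0, the regulatory median was -0.10 with 18 of 20 below 0, and 3 members were lower at an unadjusted p under 0.05 (7.69%), against 3.14% of all genes, of which 50.8% were below 0.

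EGF replicate 5 differed from the others in spread. Its members lay between 0 and 2.2 times their Saline mean, with 10 under 0.5 and 5 over 1.5, while in the other 9 libraries 0 members were outside those bounds. The interquartile range of the ratios was 0.55 in EGF replicate 5 and 0.08 to 0.16 in the other EGF libraries, and 0.08 to 0.10 in the Saline libraries. Over all tested genes it was 1.26 in EGF replicate 5, 0.19 to 0.34 in the other EGF libraries and 0.16 to 0.20 in the Saline libraries, and the members, with a median level of 69.6 CPM against 23.4 CPM for all tested genes, are more deeply counted. Both ends of the spread held core genes, and the low end also a lid gene: Psma4 at 331 CPM and Psmb6 at 156 CPM had ratios of 2.07 and 2.2 to their Saline means, while Psma2 at 14.8 CPM and Psmd8 at 20.5 CPM had ratios of 0.23 and 0.22. Other measures also differed between the libraries, and not all of them differed most in EGF replicate 5. Malat1, a nuclear RNA, took 0.521, 0.387, 0.908, 0.905 and 1.62% of the counts in EGF replicates 1 to 5 and 0.336 to 0.444% in the Saline libraries. Mitochondrial genes took 8.59, 8.38, 9.43, 10.04 and 7.72% in EGF replicates 1 to 5, with EGF replicate 5 the lowest of them, and 5.89 to 7.43% under Saline. Genes of cytosolic ribosomal proteins took 3.24 to 4.02% under EGF, lowest in EGF replicate 5, and 3.95 to 4.34% under Saline. The part of these measures in the members' levels was not tested.

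**Figure D5:**
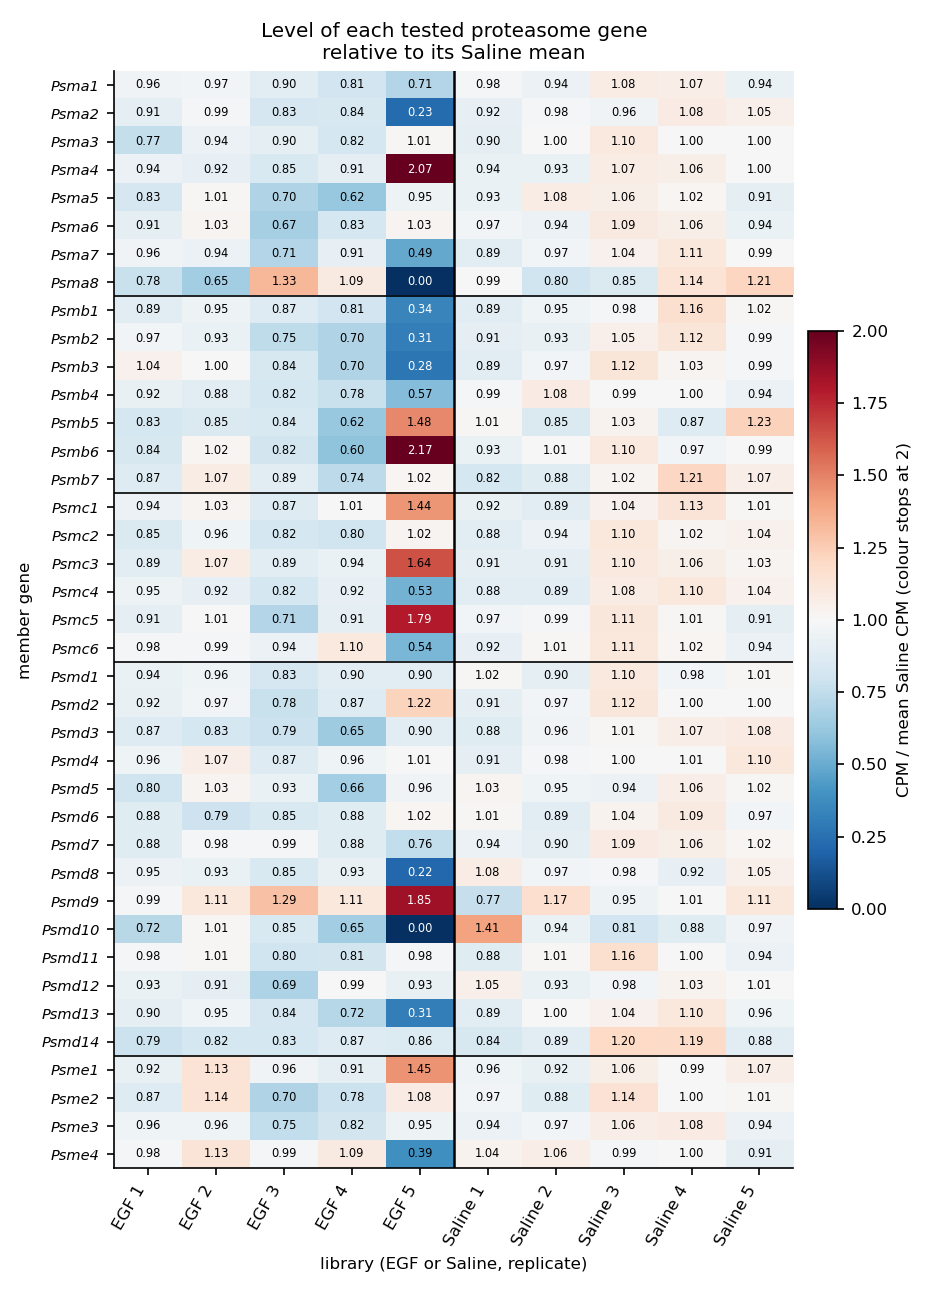
Level of each of the 39 tested members (rows) in each library (columns, EGF replicates and then Saline replicates) as a ratio to that gene's Saline mean, on a colour scale. EGF replicates 3 and 4 are below 1 for 37 and 34 of the members, Saline replicates 1 and 2 for 31 each, and EGF replicate 5 mixes ratios from 0 to 2.2.

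Markers of other cells were also summed in each library. The 13 neutrophil and granule genes were all detected in at least 1 library and summed to 1758 to 2895 CPM under EGF and 1661 to 5792 CPM under Saline; 5 of them (Ltf, Camp, Ngp, Mmp9 and Retnlg) were at 0 in some EGF libraries and 4 (Camp, Ngp, Mmp8 and Retnlg) in some Saline libraries. Of 10 tested, 4 were lower at an unadjusted p under 0.05 (Mpo, Elane, Prtn3 and Ctsg), against 2.73% of all genes. By sign, 5 of the 10 had a log2 fold change below 0 and 5 above it (Ltf, Camp, Lcn2, Ngp and S100a9). Without EGF replicate 5 the latter 5 were at -1.79 to -1.35. The 7 plasma cell genes summed to 167 to 922 CPM under EGF and 687 to 1476 CPM under Saline, with Tnfrsf17 and Derl3 at 0 in some EGF libraries. The 8 proliferation genes summed to 3093 to 4348 CPM under EGF and 3140 to 3697 CPM under Saline, none at 0. Their part in the members' levels was not tested.

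Genes that work with the proteasome were read from 7 further lists. In none of them was a gene called by edgeR, in either fit. Of 11 genes of ubiquitin receptors, deubiquitinases and other partners of the regulatory particle, 9 were below 0, with a median log2 fold change of -0.13. At an unadjusted p under 0.05, 1 was lower and 0 higher, against 2.73% and 6.14% of all genes. The lower one, Ubqln1, shuttles ubiquitinated proteins to the proteasome. It had 104, 107, 101, 104 and 81.8 CPM under EGF and 114, 116, 118, 115 and 120 CPM under Saline (log2 difference -0.23, SE 0.08; edgeR adjusted p = 0.552), every EGF library below every Saline library. Rad23b, another such shuttle, taken up after its values were seen, had 192, 190, 177, 181 and 74.8 CPM under EGF and 220, 196, 198, 204 and 221 CPM under Saline (log2 difference -0.35, SE 0.21; edgeR adjusted p = 0.596). Its groups did not overlap either, and without EGF replicate 5 its value was -0.17. Among the genes of the 7 lists, only Ubqln1, Rad23b and the assembly chaperone gene Pomp had every EGF library below every Saline library, where 1.65% of all genes did. Uchl5, a deubiquitinase of the base, had 62.3 to 87.0 CPM under EGF and 77.6 to 92.2 CPM under Saline (log2 fold change -0.22, SE 0.10). The 11 genes summed to 885 to 963 CPM under EGF and 978 to 1047 CPM under Saline, sums that did not overlap. Among the 7 lists this was the only sum to separate, and how often sums of other genes do so was not counted.

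Of 6 matched assembly chaperones of the core and base, 5 were below 0, with a median of -0.09. Pomp, which guides beta ring assembly, had 62.6, 67.2, 55.1, 63.1 and 67.8 CPM under EGF and 68.5, 69.9, 79.0, 68.8 and 69.3 CPM under Saline, all EGF libraries below all Saline libraries (log2 fold change -0.17, SE 0.09, edgeR adjusted p = 0.559). Psmg3 had 1.12 to 5.43 CPM under EGF and 4.44 to 6.10 CPM under Saline (log2 fold change -0.52, SE 0.40, and -0.29 without EGF replicate 5). Of 13 ubiquitin genes and activating or conjugating enzymes, 7 were below 0, with a median of -0.05, and at an unadjusted p under 0.05 there were 2 lower ones, against 2.73% of all genes. Rps27a, a ribosomal protein made as a fusion with ubiquitin, had 411, 496, 417, 381 and 354 CPM under EGF and 451, 492, 507, 573 and 571 CPM under Saline (log2 difference -0.33, SE 0.11; edgeR adjusted p = 0.552). Cdc34, a ubiquitin-conjugating enzyme, had 25.8, 24.6, 24.7, 19.0 and 20.3 CPM under EGF and 33.4, 24.0, 34.2, 32.0 and 28.8 CPM under Saline (log2 difference -0.41, SE 0.15; edgeR adjusted p = 0.552). For both genes 1 or more EGF libraries reached into the Saline range.

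Among the genes that control proteasome transcription, 5 of 12 were below 0, with a median log2 fold change of 0.06, and 0 were lower or higher at an unadjusted p under 0.05. Mafk, a small Maf protein that pairs with the Nfe2l1 product, had 50.8, 50.4, 45.5, 49.7 and 73.7 CPM under EGF and 48.2, 46.8, 40.4, 43.8 and 39.3 CPM under Saline (log2 difference 0.30, SE 0.14; edgeR adjusted p = 0.552). Mafg had 51.8 to 119 CPM under EGF and 41.4 to 61.4 CPM under Saline (log2 fold change 0.47, SE 0.23). Mafk and Mafg were both at 0.17 without EGF replicate 5. Nfe2l1, taken up for its role, had 111, 115, 100.4, 98.1 and 187 CPM under EGF and 106 to 113 CPM under Saline. Its log2 fold change was 0.17 (SE 0.16) with all libraries and -0.04 without EGF replicate 5. Of 13 genes of the p97 segregase, which extracts proteins for degradation, and of genes listed with it, 9 were below 0 with a median of -0.05. The smallest p-values were those of Ubxn4 (log2 fold change 0.28, SE 0.16) and Ubxn1 (0.29, SE 0.21). Leaving out EGF replicate 5 put Ubxn4 at 0.09 and Ubxn1 at -0.008. Of 9 matched peptidases and genes of antigen presentation that act on proteasome products, 6 were below 0 with a median of -0.02. Tpp2 and Tap2 led that list with log2 fold changes of 0.16 (SE 0.08) and 0.19 (SE 0.12). The last list held the inhibitor gene Psmf1, with a log2 fold change of 0.20 (SE 0.24), and Txnl1, with -0.02 (SE 0.14). Leaving out EGF replicate 5 put Psmf1 at -0.08, a change of sign, and Txnl1 at -0.18.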

How the data were processed

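The deposited values are whole-number read counts per gene, 1 file per library, with no normalization. Per the submitters' processing notes, the tools were bcl2fastq 2.17 and STAR and the builds named are GRCm38 and mm10. For the counting tool and its strand setting, no source used here gives a name. Per the labels' protocols, RNA was taken with a Qiagen RNeasy Micro kit and made into libraries with a Clontech kit, after rRNA depletion and with PCR. Copies made by PCR cannot be told apart, and what is said of depth covers counting error alone.

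Counts of the 10 libraries were fitted with edgeR 4.0.16 in R 4.3.3. Scaling was by TMM, and genes were kept by filterByExpr with a minimum count of 10. EGF was set over Saline in the quasi-likelihood F test, adjusted by Benjamini-Hochberg over all 12874 genes with a threshold of 0.05. SEs come from the F statistic. The same fit was made without EGF replicate 5. The script was checked on simulated counts. DESeq2 1.42.0, limma 3.58.1 (voom, with and without quality weights), 3 other scalings, 2 other filters, the replicate number as a block and fits without single libraries, or without EGF replicates 3 and 4, or 3 to 5, were alternatives. Levels per kb used the GENCODE principal transcript, and near copies (at least 90% identity over 200 bases) were found with BLAST. Other members with near copies included Psma3 (Gm13835, 100% over 685 bases) and Psma5 (Gm8394, 98.6% over 952 bases). Upstream regions came from RefSeq.

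The members and gene lists were chosen with earlier results of these data known, so counts and medians describe the lists and were not tested. Named genes were the members whose groups did not overlap, the 3 of smallest p in each of 5 classes, the 2 of smallest p in each list, Psmb5, Psmb6, Psmb7, Psmd14, Psmd1, Psmd2, Psmd4, Psmd11, Psme1, Psme2 and Psmb11, which did not pass the filter. Psma3, Psma4, Psma8, Psmd5, Psmd6, Psmd8, Psmd9, Psmd10, Psmd13, Psme4, Nfe2l1 and Rad23b were added after their values were seen. Paaf1 and Nrdc of the lists matched no symbol.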

Additional observations from a re-analysis of the deposited data

Results flagged for a closer look

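In each group of 5 libraries the highest and the lowest value of each member were compared with the rest of the group by Dixon's gap ratio, whose 95% critical value is 0.71. Of 79 sets (a member in 1 group), 14 had such a value, and chance alone gives about 1 in 20. EGF replicate 5 held 11 of the 14, on both sides of its group.

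Its 6 high values were those of Psma4 (331 CPM) and the catalytic genes Psmb5 (26.8 CPM) and Psmb6 (156 CPM) in the core, and of the ATPase genes Psmc1 (171 CPM), Psmc3 (218 CPM) and Psmc5 (110 CPM). Its 5 low values were those of Psma2 (14.8 CPM), Psmb1 (32.8 CPM), the ATPase gene Psmc6 (46.5 CPM), Psmd8 of the lid (20.5 CPM) and the activator gene Psme4 (39.6 CPM).

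The other 3 were single values in other libraries. Psmd12 of the lid stood at 42.9 CPM in EGF replicate 3, below 56.8 to 62.1 CPM in the other EGF libraries. The thymus gene Psmb11 stood at 0.251 CPM in EGF replicate 1, which is 2 counts. The assembly chaperone gene Psmd10 stood at 20.8 CPM in Saline replicate 1, above 12 to 14.3 CPM in the other Saline libraries.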

How the results depend on the processing

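Under all 21 alternatives 0 members were called, the core and regulatory medians stayed below 0, and the lowest adjusted p of any member was 0.116 (Psmd3, limma-voom with quality weights). The number of members lower at an unadjusted p under 0.05, 2 in the edgeR fit, moved to 6 with library size scaling (2.35% of all genes), 7 with upper quartile scaling (2.77%), 13 with quality weights (7.55%) and 0 without EGF replicates 3 and 4 together. With 1 library left out in turn it was 2 to 15, and the 15 came without EGF replicate 5. Leaving out 1 library, the core median was -0.32 to -0.18 with 12 to 15 of 15 genes below 0, and the regulatory median -0.19 to -0.13 with 16 to 18 of 20 below 0. Without EGF replicates 3, 4 and 5 the core median moved to -0.10, in a fit with fewer samples. The cause of these moves was not tested.

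Of the log2 fold changes of single members under the alternatives, 31 had the other sign and 788 kept it. With quality weights Psma4 was at -0.14, Psmb6 at -0.26, Psmc1 at -0.073, Psmc3 at -0.10, Psmc5 at -0.16, Psme1 at -0.032 and Psme4 at 0.053. Limma-voom put Psmb6 at -0.043. Without EGF replicates 3, 4 and 5 Psma4 was at -0.10, Psmb3 at 0.024, Psmb6 at -0.11, Psmc1 at -0.026, Psmc3 at -0.031, Psmc5 at -0.063, Psmd4 at 0.018, Psme2 at 0.003 and Psme4 at 0.078. Without EGF replicates 3 and 4 Psmb5 was at 0.070, Psmd2 at 0.049, Psmd4 at 0.010 and Psme2 at 0.036. With 1 library left out, Psma4 was between -0.15 and 0.27, Psmb5 between -0.35 and 0.001, Psmb6 between -0.29 and 0.28, Psmc1 between -0.059 and 0.14, Psmc3 between -0.080 and 0.18, Psmc5 between -0.18 and 0.21, Psmc6 between -0.21 and 0.0045, Psme1 between -0.025 and 0.16, and Psme4 between -0.22 and 0.065. Psmb5 turned without EGF replicate 4 and the others without EGF replicate 5.

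The replicate numbers showed no sign of pairing the libraries: deviations of same-numbered libraries correlated at -0.08 to 0.02, and 0 of 5 EGF libraries were closest to their own number. This does not settle whether same-numbered libraries shared a batch. With the number as a block 0 members were called and 2 had a lower level at an unadjusted p under 0.05, against 1.83% of all genes, the core median was -0.30 with 14 of 15 below 0, the regulatory median -0.17 with 16 of 20 below 0, and Psmb6 was at -0.032.

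With 5 libraries per group the median SE of the members was 0.14 on the log2 scale, close in size to their median difference of -0.17, so differences of this size in single genes are hard to detect here. Psmb11, Psma8 and Psmd10 have few counts, and a 0 in EGF replicate 5 limits them further.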
